A study of Homo sapiens with 48 samples.

Results

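Small noncoding RNA genes were taken from the deposited matrix of raw read counts by symbol and by level. A row belonged to the set when its symbol began with RN7SL, RNU, RNY, SNORA, SNORD, SCARNA or VTRNA, or was RMRP or RPPH1, and its mean over the 48 libraries was at least 10 counts. RN7SK was left out. This gave 278 of the 698 rows with such symbols and of 33892 rows in all. They were 25 of 144 RN7SL rows, 18 of 133 RNU, 5 of 30 RNY, 95 of 150 SNORA, 119 of 213 SNORD and 15 of 26 SCARNA rows, and RMRP. No row had a VTRNA symbol, and 105 rows with the other symbols held no count in any library, among them RN7SL1, RN7SL2, RPPH1, RNU11 and SNORD118. Just inside the threshold stood RNU6-1099P (mean 10.3 counts), SNORD116-2 (10.2) and SNORD61 (10.02), and just outside it RN7SL57P (9.94), SNORD116-6 (9.90) and RN7SL225P (9.81). The genes were selected on their mean raw count over all libraries, so their levels are description. Over the 24 DMSO libraries alone, 273 of the 278 also reached 10 counts. RNU6-9, SNORD41, SNORD116-2, SNORA11B and RN7SL49P reached it only through the carfilzomib libraries.

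The study treated 8 established human cancer cell lines with carfilzomib, which blocks the proteasome irreversibly, or with DMSO, its solvent. RKO and DLD-1 are lines from colon cancer, H-23 and H-1299 from lung cancer, PANC-1 and CAPAN-2 from pancreatic cancer, and H-929 and RPMI from multiple myeloma, a cancer of plasma cells. Each line gave a DMSO group and a carfilzomib group, both collected after 24 h with 3 biological replicates, so there were 16 groups. The drug was dosed by line to the IC50 of proteasome activity, and the concentrations were not used here. The labels name no genetic change or further agent in any group, and each tumour type is represented by a pair of lines only. The biological replicates are separate samples of 1 line, so p-values measure the spread between them within that line.

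Small noncoding RNAs work mostly inside ribonucleoprotein particles. RMRP is the RNA of RNase MRP, an enzyme that cuts precursor ribosomal RNA, and 7SL RNA, encoded by the RN7SL genes, is the scaffold of the signal recognition particle, which brings nascent secretory proteins to the endoplasmic reticulum. Spliceosomal RNAs (RNU genes) remove introns, with U12, U4atac and U6atac serving a rare class of introns, and Y RNAs (RNY genes) bind the Ro60 protein. C/D box snoRNAs (SNORD) guide ribose methylation and H/ACA box snoRNAs (SNORA) guide pseudouridylation of ribosomal RNA, while the small Cajal body RNAs (SCARNA) guide the same changes on spliceosomal RNAs. RMRP, 7SL, the Y RNAs, U6 and U6atac are transcribed by RNA polymerase III. Most human snoRNAs are instead cut from the introns of a host gene, and in GENCODE release 29 239 of the 278 genes lay within another gene on the same strand. Some snoRNAs, such as the U3 RNA of the SNORD3 genes, have promoters of their own and act in the cutting of precursor ribosomal RNA.

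The sequences below are those of RMRP, 3 spliceosomal RNAs of the rare introns and 2 Y RNAs that fell in RKO and H-929. Some snoRNAs and a Cajal body RNA follow, chosen after their values were seen and not as the clearest differences between lines. All the sequences are GENCODE release 29 transcripts on GRCh38, matched by Ensembl identifier and equal name, read 5′ to 3′ on the gene's strand with T for U. Capitals mark, in SNORD sequences, the C box TGATGA near the 5′ end and the D box CTGA near the 3′ end, in SNORA and SCARNA sequences the ACA that ends 3 bases before the 3′ end, in RNU sequences the letters ATTTTTG to which Sm proteins bind, and in RNY sequences the closing run of T that ends many polymerase III transcripts. RNU6ATAC held no ATTTTTG, and RMRP was not searched.
RMRP (chr9:35657751-35658018, minus strand): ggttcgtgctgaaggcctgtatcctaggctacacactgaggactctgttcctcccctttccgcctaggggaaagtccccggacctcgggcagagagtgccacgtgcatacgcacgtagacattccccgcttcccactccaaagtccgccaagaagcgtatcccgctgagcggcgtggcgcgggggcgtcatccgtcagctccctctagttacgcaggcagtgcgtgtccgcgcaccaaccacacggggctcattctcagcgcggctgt
RNU12 (chr22:42615244-42615393, plus strand): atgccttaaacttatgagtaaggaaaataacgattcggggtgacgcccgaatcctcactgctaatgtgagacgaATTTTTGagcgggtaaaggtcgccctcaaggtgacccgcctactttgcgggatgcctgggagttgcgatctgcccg
RNU4ATAC (chr2:121530881-121531007, plus strand): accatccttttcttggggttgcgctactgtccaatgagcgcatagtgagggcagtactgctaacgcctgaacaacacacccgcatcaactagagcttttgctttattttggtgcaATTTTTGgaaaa
RNU6ATAC (chr9:134164439-134164564, minus strand): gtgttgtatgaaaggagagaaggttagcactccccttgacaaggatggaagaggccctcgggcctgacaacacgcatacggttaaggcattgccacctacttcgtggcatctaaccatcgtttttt
RNY1 (chr7:148987136-148987248, minus strand): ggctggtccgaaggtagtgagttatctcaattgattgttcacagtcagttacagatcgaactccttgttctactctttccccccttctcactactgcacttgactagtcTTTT
RNY4 (chr7:148963315-148963410, plus strand): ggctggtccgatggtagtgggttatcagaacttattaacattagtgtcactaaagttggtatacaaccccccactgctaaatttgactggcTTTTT
SNORA23 (chr11:9428773-9428954, plus strand): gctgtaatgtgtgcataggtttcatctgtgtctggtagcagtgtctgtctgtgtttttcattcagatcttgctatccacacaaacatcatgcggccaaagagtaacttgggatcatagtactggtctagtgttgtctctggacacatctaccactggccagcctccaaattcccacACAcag
SNORA24 (chr4:118279190-118279320, plus strand): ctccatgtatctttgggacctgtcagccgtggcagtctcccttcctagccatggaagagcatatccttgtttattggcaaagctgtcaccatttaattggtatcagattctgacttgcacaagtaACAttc
SNORD14E (chr11:123058077-123058161, minus strand): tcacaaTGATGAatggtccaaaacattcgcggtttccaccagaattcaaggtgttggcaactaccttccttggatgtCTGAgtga
SNORD17 (chr20:17962710-17962946, minus strand): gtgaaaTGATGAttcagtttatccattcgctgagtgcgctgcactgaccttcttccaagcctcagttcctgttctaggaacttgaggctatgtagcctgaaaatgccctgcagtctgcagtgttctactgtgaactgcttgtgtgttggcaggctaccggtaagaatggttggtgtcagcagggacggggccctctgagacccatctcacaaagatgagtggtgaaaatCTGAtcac
SCARNA21 (chr17:7906122-7906260, plus strand): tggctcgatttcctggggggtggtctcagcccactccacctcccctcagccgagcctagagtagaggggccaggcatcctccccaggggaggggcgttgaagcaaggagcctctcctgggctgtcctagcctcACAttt

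Over the 259 genes with the same symbol and identifier in GENCODE, the class motifs were searched on the sense strand only. The D box stood within the last 18 bases in 97.2% of 107 SNORD sequences and in 7.89% of the 152 others, and the C box started within the first 15 bases in 62.6% and 2.63%. The closing ACA was found in 74.2% of 89 SNORA sequences and in 7.06% of the 170 others. The Sm site occurred in 23.5% of 17 RNU sequences and in 2.07% of the rest. RNU12 and RNU4ATAC lie within noncoding RNA genes, SNORA23 in IPO7, SNORA24 in SNHG8, SNORD14E in HSPA8, SNORD17 in SNX5 and SCARNA21 in CHD3. RMRP, RNU6ATAC, RNY1 and RNY4 lie in no other gene on their strand.

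A library held 9.12 M to 64.4 M counts (M, mega), and depth moved with the treatment in H-929, where DMSO libraries held 14.6 to 18.9 M and carfilzomib libraries 9.12 to 9.93 M. The median gene of the set had a mean of 57.1 counts, against 481 over the 18533 rows with a mean of at least 10. In DMSO libraries all 6 myeloma markers reached 1 CPM (count per M counts, scaled by TMM factors within a line) in H-929 and RPMI, at a summed 6453 to 6770 and 2611 to 2824 CPM, and at most 544 CPM in any other line. The 5 epithelial markers summed to 926 CPM or more in 5 of the 6 carcinoma lines but to 143 to 162 CPM in RKO, where KRT19 was at 0 and CDH1 near 0. In H-1299, the lowest of those 5 lines, only 2 markers reached 1 CPM, KRT8 and KRT18. EPCAM was at 0.18, KRT19 at 0.07 and CDH1 at 0 CPM there. RKO had 3 markers at 1 CPM or more. RPMI, a myeloma line, had 4, at a summed 197 to 201 CPM. Of 3 colon markers 1 reached 1 CPM in RKO. The lung markers SFTPC and NAPSA summed to at most 3.11 CPM in H-23 and 1.37 CPM in H-1299. In H-929 they summed to 37.4 to 39.4 CPM, so the lung label had no support from these 2 markers. No value is given for NKX2-1, also on the lung list. The 3 pancreatic markers summed to 1362 to 1444 CPM in CAPAN-2 but to 67.0 to 74.7 CPM in PANC-1, below the 221 to 253 CPM of DLD-1.

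The 12 libraries of RKO and H-929 stood apart from the other 36 in their small RNAs, under both treatments. RNY4 measured 48.9, 41.6 and 74.5 CPM in the RKO DMSO libraries and 39.5, 26 and 24.9 CPM in those of H-929, while it did not pass 0.0728 CPM in the DMSO libraries of any other line. SNORD10 measured 357 to 545 CPM in RKO DMSO libraries and 335 to 462 CPM in H-929 ones, against at most 7.03 CPM elsewhere. Some longer genes went the other way: SNORD3A was at 322 to 381 CPM in RKO and 328 to 402 CPM in H-929, and at 2689 to 9608 CPM in the other 6 lines. In DMSO libraries 135 of the 278 genes (48.6%) were higher in both lines than in each of the other 6, a share that was 7.34% over all 18533 rows with a mean of at least 10 counts. By annotated length, this held for 13 of 61 genes of up to 80 bases, 80 of 120 above 100 and up to 150 bases, 11 of 13 of 151 to 200 bases and 2 of 9 above 300 bases. This pair of lines was singled out after its values were seen, so these counts are description. The set's mean count was taken over all 48 libraries, so genes such as RNY4 entered the set only through RKO and H-929. The share of 48.6% therefore rests in part on genes admitted by the lines in which they are high. The labels name no batch, library date or fragment size, so cell line and library handling cannot be told apart here, and levels set side by side across lines are description with no test.

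**Figure D1:**
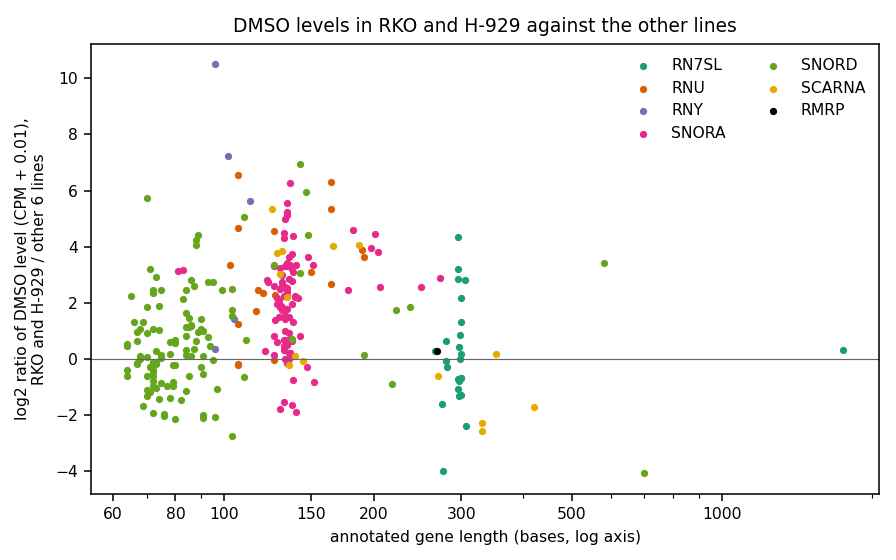
Log2 ratio of the mean DMSO level in RKO and H-929 to that in the other 6 lines (CPM with 0.01 added) against annotated gene length for the 278 genes, each point 1 gene, coloured by class. Genes above 100 and up to 200 bases mostly lie above 0, with a median of 2.18 up to 150 bases, and genes above 300 bases mostly lie below it, with a median of -1.70.

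The first question was how much of each library the small noncoding RNA genes took and whether this moved with carfilzomib. In H-929 their summed share of counts was 2.54%, 1.98% and 2.11% with DMSO and 5.18%, 5.55% and 6.37% with carfilzomib. In RPMI it was 1.82%, 1.99% and 1.64% against 3.25%, 2.72% and 3.01%. The 3 carfilzomib libraries were above the 3 DMSO libraries in both myeloma lines. PANC-1 went from 1.66% ± 0.0605 (SD, n = 3) to 1.92% ± 0.0896 and H-23 from 1.60% ± 0.0170 to 1.74% ± 0.0803, smaller steps without overlap. CAPAN-2 went down, from 0.995% ± 0.0981 to 0.816% ± 0.0381, and RKO, DLD-1 and H-1299 overlapped. These are bulk libraries, so fewer cells of a kind and less RNA per cell cannot be told apart, nor can more of one RNA and less of the rest.

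Each gene was then tested within its line with edgeR's quasi-likelihood F test, and called at a Benjamini-Hochberg adjusted p under 0.05 over all genes of that line. H-929 had the most calls: 180 of 234 tested small RNA genes were higher after carfilzomib, where 26.4% of all genes were called higher, and 3 were lower, where 26.2% of all genes were called lower. Their median log2 fold change was 1.13, against 0.03 over all genes. Library depth fell with the treatment in this line, as given above, and its part in the result was not tested. In RPMI 77 of 228 were higher (all genes, 31.3%) and 14 lower (32.2%), with a median of 0.36, so the share called higher, 33.8%, stood near that of all genes. CAPAN-2 had the most falls, 43 of 251 (17.1%, all genes 26.7%), with 7 higher (2.79%, all genes 25.7%) and a median of -0.27. Both of its shares lay below those of all genes.

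In the other 5 lines, as in CAPAN-2, both shares stayed below those of all genes. H-1299 had 42 of 246 higher (all genes, 29.8%) and 16 lower (31.3%), PANC-1 16 of 248 higher (20.5%) and 8 lower (18.2%), and H-23 11 of 264 higher (17.7%) and 20 lower (16.2%). DLD-1 had 3 of 248 in each direction (10.9% higher and 12.1% lower over all genes). RKO had 0 of 230 higher (3.62%) with edgeR, 0 at an unadjusted p under 0.05 and 0 with DESeq2, and 3 lower (5.28%), although the median log2 fold change of its small RNA genes was -0.28. Scaling by library totals in place of TMM factors moved the median of all genes in H-1299 by -0.11 and its split from 42 higher and 16 lower to 33 and 29. In DLD-1 the same scaling gave 4 higher and 1 lower. The counts in RKO (falls), DLD-1, H-23 and PANC-1, the falls in H-1299 and the rises in CAPAN-2 rested on few genes and moved by more than 1.5 times when single libraries were left out. The 16 falls in H-1299 went to 7 without DMSO replicate 2 and to 10 without carfilzomib replicate 1, and the 7 rises in CAPAN-2 went to 4 without carfilzomib replicate 1. The 3 falls in RKO went to 0 without DMSO replicate 3, carfilzomib replicate 2 or carfilzomib replicate 3, to 6 without DMSO replicate 1 and to 10 without DMSO replicate 2.

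**Figure D2:**
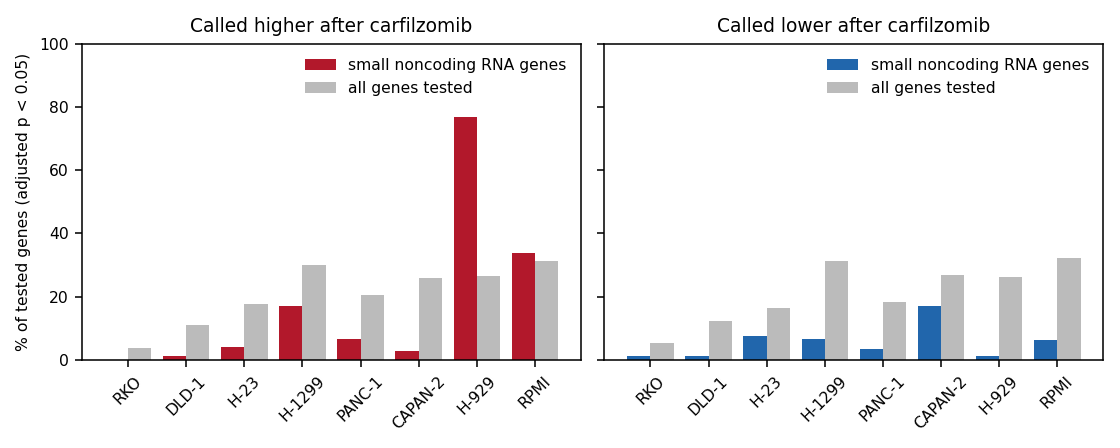
Percent of tested small noncoding RNA genes (coloured bars) and of all tested genes (grey bars) called higher (left) or lower (right) after carfilzomib in each line, with edgeR at an adjusted p under 0.05. In H-929 76.9% of the small RNA genes were called higher against 26.4% of all genes, and in no other line did their share stand as far above that of all genes.

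The classes did not move alike. In H-929 80 of 88 SNORA, 69 of 97 SNORD, 13 of 14 SCARNA, 9 of 16 RNU and 8 of 14 RN7SL genes were higher, with median log2 fold changes of 1.21, 1.03, 1.12, 0.66 and 1.06, whereas 2 of 4 RNY genes were lower, with a median of -0.79, and 0 were higher with edgeR, at an unadjusted p under 0.05 or with DESeq2. In RPMI 10 of 13 RNU, 8 of 14 SCARNA and 7 of 14 RN7SL genes were higher. The snoRNAs were mixed, with 28 of 82 SNORA higher and 5 lower, and 23 of 102 SNORD higher and 9 lower. Over all genes 26.4% were called higher and 26.2% lower in H-929, and 31.3% and 32.2% in RPMI. The SNORA share called higher in RPMI, 34.1%, stood near that of all genes. Both SNORD shares there, 22.5% higher and 8.82% lower, lay below those of all genes. Median log2 fold changes in RPMI were 0.89 for RNU, 0.76 for SCARNA, 0.95 for RN7SL, 0.40 for SNORA and 0.05 for SNORD.

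In CAPAN-2 the falls were 27 of 105 SNORD (25.7%), 15 of 91 SNORA (16.5%) and SCARNA22, a Cajal body RNA of the NSD2 gene. Both snoRNA shares lay below the 26.7% of all genes called lower there, and snoRNAs made up most of the tested set. In H-1299 9 of 15 SCARNA genes were higher (all genes, 29.8%), with a median of 0.47. The summed SCARNA level in H-1299 had a log2 ratio of 0.38 under scaling by library totals. By annotated length, the median log2 fold change in RPMI was 0.06 up to 80 bases and -0.25 from 81 to 100 bases. It was 0.41 above 100 and up to 150 bases, 0.84 from 151 to 200 bases, 0.90 from 201 to 300 bases and 1.01 above 300 bases. A higher median in the longest than in the shortest range was not particular to RPMI. From shortest to longest it went from -0.41 to -0.001 in RKO, -0.17 to 0.07 in PANC-1 and -0.22 to 0.51 in H-1299. In CAPAN-2 it went from -0.36 to -0.12, in H-23 from -0.16 to -0.06 and in DLD-1 down, from 0.08 to -0.04. In H-929 the medians of the same length ranges all lay between 1.01 and 1.29.

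**Figure D3:**
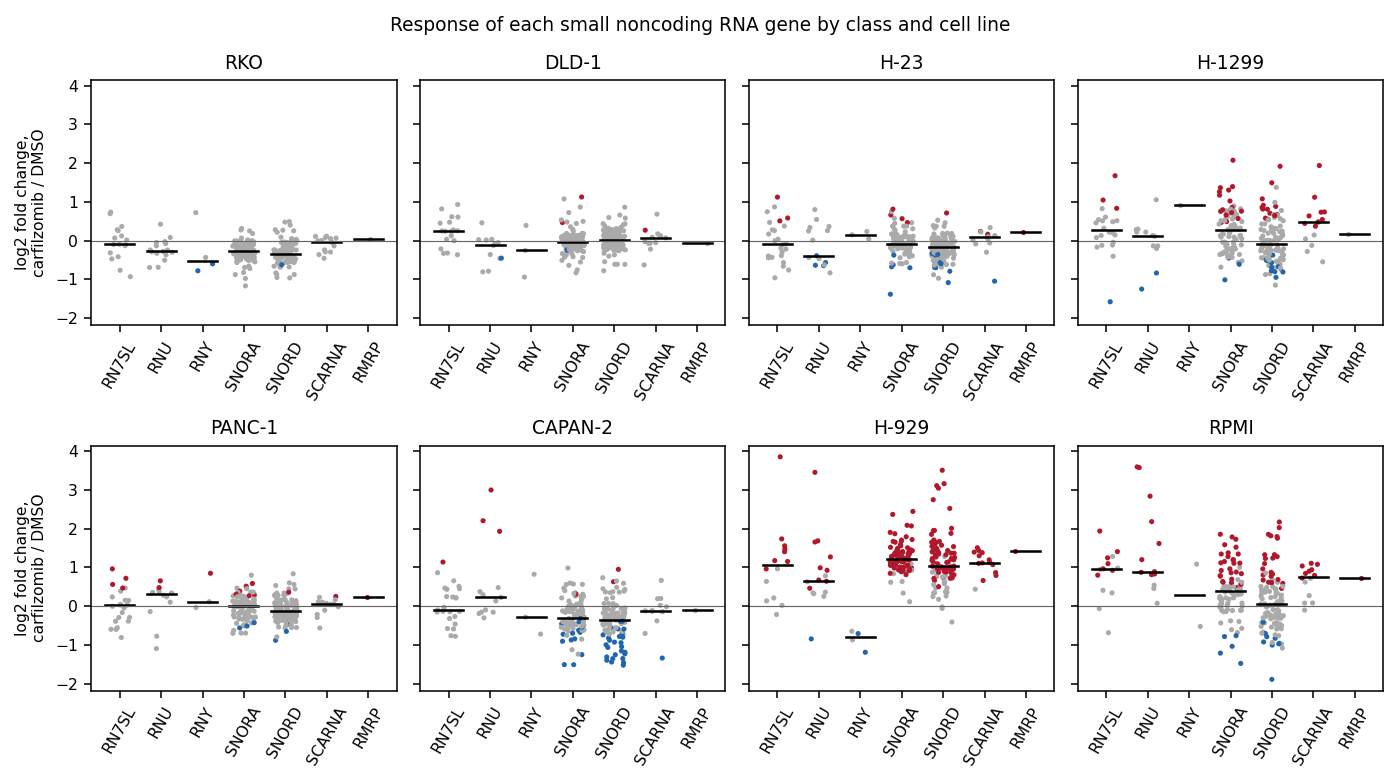
Log2 fold change of each tested small noncoding RNA gene after carfilzomib, by class and cell line. Each point is 1 gene (red called higher, blue called lower, grey not called at an adjusted p of 0.05, edgeR) and black bars are class medians, among them 1.21 for SNORA and -0.79 for RNY in H-929.

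RMRP, the RNA of RNase MRP, had the highest DMSO level per kilobase of the 31 genes that met the naming rule in each line, from 7564 CPM per kilobase in CAPAN-2 to 32029 in H-929. In H-929 it measured 9083, 8177 and 8695 CPM with DMSO and 23297, 20144 and 25965 CPM with carfilzomib. In RPMI the values were 6223, 6316 and 5191 against 9998, 9210 and 10080 CPM. Both lines showed a rise without overlap between groups, of 1.42 ± 0.09 (log2, SE, adjusted p = 1.7e-08) in H-929 and 0.72 ± 0.07 (adjusted p = 6.84e-07) in RPMI. RMRP also rose in H-23, from 8491, 8545 and 8472 to 9544, 10171 and 9962 CPM (log2 0.22 ± 0.02, adjusted p = 2.72e-06), and in PANC-1, from 8242, 8266 and 8509 to 10366, 9218 and 9920 CPM (log2 0.24 ± 0.03, adjusted p = 7.97e-05). In RKO, DLD-1, H-1299 and CAPAN-2 its log2 fold change lay between -0.09 and 0.18 and was not called. In CAPAN-2 RMRP measured 1754 to 2142 CPM over both groups.

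Of 7SL RNA, the RN7SL1 and RN7SL2 rows held no count, so RN7SL3 and pseudogene-named copies carried all of the class. RN7SL3 measured 2877, 2640 and 2554 CPM in H-929 with DMSO and 6807, 7041 and 8488 CPM with carfilzomib. In RPMI the values were 989, 978 and 977 against 1722, 2068 and 1945 CPM, and in PANC-1 1076, 1012 and 1137 against 1595, 1621 and 1533 CPM. In these 3 lines every carfilzomib library was above every DMSO library, with log2 fold changes of 1.47 ± 0.09, 0.96 ± 0.06 and 0.56 ± 0.04 (SE, adjusted p = 1.24e-08, 1.58e-08 and 2.02e-07), and RN7SL3 was called in no other line. RN7SL4P, a pseudogene-named copy, varied widely between replicates: in H-929 it measured 4101, 2139 and 2253 CPM against 2344, 8930 and 7866 CPM, groups that overlapped. Its log2 fold change there was 1.17 ± 0.35 (adjusted p = 0.0117), and the call was lost without carfilzomib replicate 2, without carfilzomib replicate 3 and with DESeq2 (adjusted p 0.0713 to 0.0978). Reads of the 25 RN7SL genes, 24 of them named as pseudogenes, cannot be assigned with certainty among near-identical copies.

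Among the weaker 7SL copies, RN7SL128P rose in H-929 (log2 0.96 ± 0.25) and RPMI (1.24 ± 0.24), and RN7SL396P rose in PANC-1 (0.96 ± 0.28), H-929 (1.73 ± 0.21) and RPMI (1.93 ± 0.37). DESeq2 did not call RN7SL128P in H-929 (adjusted p = 0.0722), and RN7SL396P in PANC-1 was lost in 3 alternatives (adjusted p 0.0581 to 0.0704), among them leaving out DMSO replicate 2 or carfilzomib replicate 2. RN7SL832P fell in H-1299, from 1.48, 1.80 and 1.92 to 0.603, 0.674 and 0.435 CPM (log2 -1.58 ± 0.28, adjusted p = 0.000292). It is annotated at 1756 bases, longer than 7SL RNA itself, and it was higher in H-929 (1.4 ± 0.40) and RPMI (1.09 ± 0.37), calls lost without carfilzomib replicate 2 in H-929 and, in RPMI, without DMSO replicate 1, without carfilzomib replicate 2 or with DESeq2. RN7SL521P had the largest rise of any small RNA gene in H-929, from 0, 8 and 0 counts to 14, 22 and 30 counts (log2 3.85 ± 0.86, adjusted p = 0.00167), a value that rests on few reads. The rise of RN7SL587P in H-23 (1.12 ± 0.41, adjusted p = 0.0492) was lost in 8 alternatives, 5 of them single libraries left out (DMSO replicates 1, 2 and 3 and carfilzomib replicates 1 and 2), with adjusted p from 0.05 to 0.173.

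RNU6ATAC, RNU4ATAC and RNU12, RNAs of the spliceosome of rare introns, were each called higher in both myeloma lines. Of the RNU genes, 9 of 16 were higher in H-929 (all genes, 26.4%) and 10 of 13 in RPMI (31.3%). RNU6ATAC, which encodes U6atac, measured 1.05, 0.779 and 1.14 CPM in RPMI with DMSO and 11.1, 11.1 and 13.7 CPM with carfilzomib, from 18 to 42 counts up to 202 to 308 counts. These groups lie far apart, and the log2 fold change of 3.59 ± 0.20 (SE, adjusted p = 3.46e-09) was the largest of any RPMI gene of the set that met the naming rule. In H-929 it went from 6.68, 4.56 and 3.00 to 8.08, 10.4 and 8.65 CPM (log2 0.92 ± 0.30, adjusted p = 0.0175). That call was lost without DMSO replicate 2, DMSO replicate 3 or carfilzomib replicate 2 (adjusted p 0.0523 to 0.0725).

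RNU4ATAC, the U4atac gene and named here after its values were seen, went from 9.42, 7.48 and 5.65 to 16.4, 20 and 18.2 CPM in H-929 (log2 1.27 ± 0.21, adjusted p = 0.000132). In RPMI it went from 1.92, 1.49 and 1.28 to 3.75, 3.80 and 6.51 CPM (1.61 ± 0.27, adjusted p = 0.00016). Neither line showed overlap. RNU12, the U12 gene, moved in both directions over the lines. It rose in RPMI, from 4.65, 3.86 and 4.35 to 7.22, 7.64 and 8.56 CPM (0.87 ± 0.16, adjusted p = 0.000339), in H-929 (0.46 ± 0.13) and in PANC-1 (0.48 ± 0.16). It fell in H-23, from 7.79, 7.28 and 7.87 to 5.16, 4.95 and 4.72 CPM (-0.63 ± 0.12, adjusted p = 0.000759), and in DLD-1 (-0.45 ± 0.13, adjusted p = 0.0306). The H-929, PANC-1 and DLD-1 calls of RNU12 were each lost in 2 to 7 alternatives: without DMSO replicate 2 in all 3 lines, without carfilzomib replicate 3 in H-929 and DLD-1, without carfilzomib replicate 2 in PANC-1 and DLD-1, and without DMSO replicate 1 or carfilzomib replicate 1 in PANC-1 (adjusted p 0.0525 to 0.121).

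Outside the myeloma lines, 2 of 12 RNU genes were higher in PANC-1 (all genes, 20.5%), 3 of 13 were higher in CAPAN-2 (25.7%) and 4 of 15 were lower in H-23 (16.2%). RNU5E-1, a U5 variant, rose in RPMI (0.89 ± 0.15), H-929 (0.64 ± 0.17) and PANC-1 (0.65 ± 0.21) and fell in H-23 (-0.39 ± 0.12). It lost its PANC-1 call without DMSO replicate 1, carfilzomib replicate 2 or carfilzomib replicate 3 (adjusted p up to 0.0737) and its H-23 call without DMSO replicate 1 (adjusted p = 0.0735). RNU2-64P, a U2 copy named as a pseudogene, rose from 44.2, 38.4 and 27.8 to 67.7, 77.2 and 74.6 CPM in H-929 (0.99 ± 0.14) and from 3.02, 3.93 and 2.96 to 8.93, 7.50 and 6.42 CPM in RPMI (1.20 ± 0.19). RNU6-37P, a U6 copy within KIF1B, had the largest rise that met the naming rule in CAPAN-2, from 10, 3 and 8 counts to 27, 19 and 21 counts (1.93 ± 0.44, adjusted p = 0.00209), where KIF1B rose by 1.62 ± 0.06. Its smaller H-929 rise (0.67 ± 0.25) was lost in 7 alternatives, among them leaving out any of the 3 DMSO libraries or carfilzomib replicate 2 or 3 (adjusted p up to 0.164). The only spliceosomal RNA gene lower in H-929 was RNU6-60P (-0.85 ± 0.34), named because it was 1 of 3 falls there, a call lost in 8 alternatives, among them without any DMSO replicate or carfilzomib replicate 1 or 3 (adjusted p up to 0.138).

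Y RNAs had most of their counts in RKO and H-929, the lines whose libraries stood apart. RNY4 went from 48.9, 41.6 and 74.5 to 38.4, 26.9 and 31.8 CPM in RKO, and from 39.5, 26 and 24.9 to 12.8, 15 and 11.7 CPM in H-929. No carfilzomib library reached the lowest DMSO library in either line. The log2 fold change was -1.19 ± 0.18 (adjusted p = 8.86e-05) in H-929, the largest fall of the set there, and -0.78 ± 0.18 (adjusted p = 0.0206) in RKO. The RKO call was lost without DMSO replicate 3, carfilzomib replicate 2 or carfilzomib replicate 3 and with DESeq2 (log2 -0.77 to -0.48, adjusted p 0.0568 to 0.0955). In the other 6 lines RNY4 had at most 5 counts in a library and was not tested.

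RNY1 fell in H-929, from 46.5, 27.7 and 29.5 to 21.7, 24.0 and 17.6 CPM (-0.71 ± 0.19, adjusted p = 0.00557), and in RKO, from 29.7, 22.1 and 37.6 to 22.3, 18.1 and 18.9 CPM (-0.60 ± 0.16, adjusted p = 0.0403), where a carfilzomib library lay within the DMSO range. The RKO call was lost in 5 alternatives, among them leaving out DMSO replicate 1, DMSO replicate 3, carfilzomib replicate 2 or carfilzomib replicate 3 (adjusted p 0.0513 to 0.176). In PANC-1 RNY1 rose from 14, 11 and 22 counts to 23, 38 and 30 counts (0.85 ± 0.29, adjusted p = 0.0368), a call lost in 6 alternatives, among them leaving out DMSO replicate 1 or 2 or carfilzomib replicate 2 or 3. RNY3 was not called in H-929 (-0.65 ± 0.29) or RKO (-0.43 ± 0.25). SNORD2, the third fall in RKO, had a log2 fold change of -0.62 ± 0.17 (adjusted p = 0.0442), lost without every single library but DMSO replicate 1 (adjusted p up to 0.166).

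**Figure D4:**
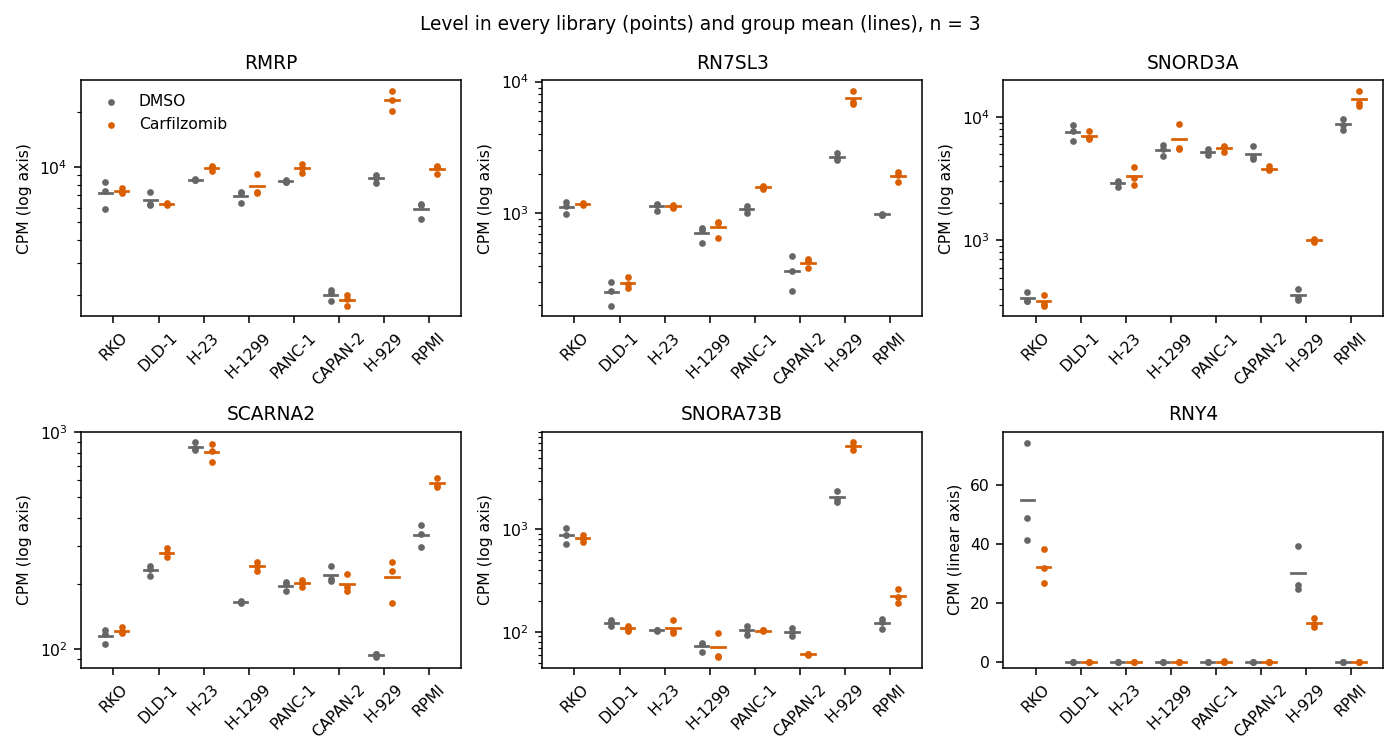
CPM of RMRP, RN7SL3, SNORD3A, SCARNA2, SNORA73B (log axes) and RNY4 (linear axis) in every library, DMSO grey and carfilzomib orange, with the group mean of 3 replicates as a line. In H-929 the carfilzomib libraries lie above the DMSO libraries for each gene except RNY4, where they lie below (11.7 to 15 against 24.9 to 39.5 CPM).

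Of the H/ACA snoRNAs, 80 of 88 rose in H-929 (all genes, 26.4%), and 15 of 91 fell in CAPAN-2, a smaller share than the 26.7% of all genes. SNORA73B, a snoRNA of SNHG3 with the highest mean level of its class, went from 2354, 1840 and 1971 to 6550, 5942 and 7087 CPM in H-929 (log2 1.67 ± 0.10, adjusted p = 7.75e-09). In CAPAN-2 it went from 99.0, 91.5 and 109 to 60.4, 60.7 and 59.7 CPM (-0.73 ± 0.07, adjusted p = 3.65e-07), and in RPMI from 125, 134 and 107 to 263, 193 and 218 CPM (0.88 ± 0.10, adjusted p = 4.6e-06). None of these groups overlapped. SNORA73A, from the same host, had log2 fold changes of 1.17 ± 0.12, -0.70 ± 0.07 and 0.96 ± 0.11 in these lines. Both had small falls in DLD-1, -0.19 ± 0.06 and -0.24 ± 0.08, which were lost under library totals, without DMSO replicate 2 or 3 or without carfilzomib replicate 2 or 3 (adjusted p 0.0518 to 0.161), and for SNORA73A also without carfilzomib replicate 1.

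SNORA23, within IPO7, rose in 4 lines and fell in CAPAN-2, its H-23 call being lost without DMSO replicate 2 or 3 or carfilzomib replicate 2 and its PANC-1 call without DMSO replicate 2. In H-929 it went from 81.5, 78.2 and 68.8 to 253, 217 and 257 CPM (1.67 ± 0.09, adjusted p = 6.39e-09) and in CAPAN-2 from 5.54, 4.69 and 5.49 to 3.18, 3.35 and 3.31 CPM (-0.68 ± 0.15, adjusted p = 0.00181). SNORA24, within SNHG8, went from 50, 38.3 and 34.8 to 84.5, 88.9 and 90.1 CPM in H-929 (1.10 ± 0.12) and from 4.58, 4.84 and 5.79 to 2.13, 1.53 and 1.65 CPM in CAPAN-2 (-1.51 ± 0.19, adjusted p = 1.06e-05). The groups did not overlap in either line, and the signs were opposite. SNORA74A, within SNHG4, rose in H-929 (1.01 ± 0.09), RPMI (0.79 ± 0.15) and PANC-1 (0.30 ± 0.10) and fell in CAPAN-2 (-0.41 ± 0.13). Its PANC-1 call was lost in 7 alternatives, without every library but DMSO replicate 1 (adjusted p up to 0.183), and its CAPAN-2 call without carfilzomib replicate 3 (adjusted p = 0.0642).

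No gene of the set was called in 1 direction in 6 or more lines. SNORA53, SNORA74B, SNORA80B and SCARNA12, named because they were the 4 called higher in 5 lines, rose in H-23, H-1299, PANC-1, H-929 and RPMI. SNORA74B, within ATP6V0E1, measured 1.04, 1.07 and 1.20 CPM in H-1299 with DMSO and 2.33, 2.37 and 3.48 CPM with carfilzomib (1.31 ± 0.24, adjusted p = 0.000421), and 43.8, 36.8 and 41.7 against 126, 108 and 125 CPM in H-929 (1.55 ± 0.10). SNORA80B, within the ornithine decarboxylase gene ODC1, had log2 fold changes of 0.66, 0.80, 0.51, 2.36 and 1.10 in the 5 lines, and SNORA53 0.47, 0.57, 0.31, 1.4 and 1.15, with a log2 fold change of -0.35 ± 0.11 in CAPAN-2. The H-929 and RPMI rises of these 4 genes kept their calls in every alternative, while several of those in the other lines did not. SNORA53 lost its call in H-1299 without DMSO replicate 2 or 3 or carfilzomib replicate 3, with library totals or with DESeq2, in PANC-1 without DMSO replicate 2 or 3 or carfilzomib replicate 2 or 3 and in CAPAN-2 without DMSO replicate 1 or carfilzomib replicate 2. SNORA74B lost its H-23 call without any DMSO replicate or carfilzomib replicate 2, with library totals, with the replicate block and with DESeq2 (adjusted p up to 0.369), and its PANC-1 call with DESeq2 (adjusted p = 0.0551). SNORA80B lost its call without DMSO replicate 3 or carfilzomib replicate 2 in H-23 and, in PANC-1, also without DMSO replicate 2 or carfilzomib replicate 1, with no filter, with the replicate block and with DESeq2. Outside the myeloma lines, the H/ACA genes among the largest changes per line that met the naming rule were SNORA40B, SNORA31 and SNORA30, each with few counts. SNORA40B rose in H-1299 from 25, 13 and 11 counts to 41, 44 and 27 counts (2.07 ± 0.33, adjusted p = 0.000115). SNORA31 rose in DLD-1 (1.13 ± 0.30) and SNORA30 fell in H-23 (-1.38 ± 0.44), calls lost without DMSO replicate 1, carfilzomib replicate 1 or carfilzomib replicate 3 and without any DMSO replicate or carfilzomib replicate 3, respectively (adjusted p 0.0753 to 0.077 and 0.0563 to 0.0964).

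Of the C/D snoRNAs, 69 of 97 rose in H-929 (all genes, 26.4%), and 27 of 105 fell in CAPAN-2, near the 26.7% of all genes. SNORD3A, a U3 gene, measured 343, 328 and 402 CPM in H-929 with DMSO and 1024, 970 and 1013 CPM with carfilzomib (1.49 ± 0.08, adjusted p = 5.6e-09). In RPMI it went from 8608, 9608 and 7833 to 16202, 12216 and 13065 CPM (0.67 ± 0.09, adjusted p = 2.58e-05), and in CAPAN-2 from 4727, 4538 and 5764 to 3998, 3748 and 3697 CPM (-0.39 ± 0.08, adjusted p = 0.000503). The groups of each line lay apart. SNORD3D, another U3 copy, followed with 0.88 ± 0.10, 0.61 ± 0.15 and -0.59 ± 0.09 and also rose in PANC-1 (0.36 ± 0.09). SNORD17, within SNX5, had log2 fold changes of 1.44 ± 0.10 in H-929, 1.23 ± 0.11 in RPMI and -0.55 ± 0.09 in CAPAN-2. SNORD10, within EIF4A1, rose in H-929 only by its calls, from 462, 370 and 335 to 681, 687 and 793 CPM (0.89 ± 0.11, adjusted p = 8.09e-06).

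Among C/D snoRNAs the largest fall in CAPAN-2 was that of SNORD27, from 2.49, 1.79 and 1.80 to 0.601, 0.736 and 0.787 CPM (-1.53 ± 0.26, adjusted p = 0.0002). SNORD27 rose in H-929 from 18.4, 11.4 and 13.6 to 36.8, 36.2 and 36.9 CPM (1.34 ± 0.16). Its identifier carries another name in GENCODE, so its place and host are not given. SNORD22, SNORD26 and SNORD28, named after their values were seen because all lie within SNHG1, fell in CAPAN-2 by 1.07, 1.31 and 0.70 on the log2 scale and in H-1299 by 0.78, 0.80 and 0.81, and rose in H-929 by 1.03, 1.36 and 0.87. The H-929 call of SNORD28 was lost in 8 alternatives, without every single library but carfilzomib replicate 3 (adjusted p up to 0.256). In RPMI the largest fall of the set was SNORD93, within SNHG26, from 30, 64 and 87 counts to 17, 6 and 12 counts (-1.89 ± 0.38, adjusted p = 0.000645). SNORD65C had the largest called fall in PANC-1 that met the naming rule (-0.88 ± 0.27), lost without DMSO replicate 1 or 2 or carfilzomib replicate 1 or 3 (adjusted p up to 0.0949). SNORD96A, within RACK1, was the only gene called lower in 4 lines: H-1299 (-0.37 ± 0.14), PANC-1 (-0.32 ± 0.11), CAPAN-2 (-0.39 ± 0.14) and RPMI (-0.42 ± 0.14). Each of these calls was lost without 3 or more of the 6 single libraries (adjusted p up to 0.141).

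Of the small Cajal body RNAs, 9 of 15 were called higher in H-1299 (all genes, 29.8%), 13 of 14 in H-929 (26.4%) and 8 of 14 in RPMI (31.3%). The rest of these RNAs were not called in these lines. SCARNA2 measured 163, 165 and 167 CPM in H-1299 with DMSO and 229, 242 and 252 CPM with carfilzomib (0.55 ± 0.04, adjusted p = 2.53e-07), 95.3, 92.2 and 94.9 against 229, 163 and 253 CPM in H-929 (1.19 ± 0.13), and 374, 339 and 295 against 560, 572 and 613 CPM in RPMI (0.79 ± 0.08). In DLD-1 it rose by 0.27 ± 0.05 (adjusted p = 0.00475). In each of these lines the lowest carfilzomib library was above the highest DMSO library. SCARNA7, within KPNA4, rose by 0.73 ± 0.08 in H-1299, 1.5 ± 0.13 in H-929 and 0.90 ± 0.09 in RPMI, and SCARNA10, within NCAPD2, by 0.37 ± 0.05, 0.86 ± 0.12 and 1.08 ± 0.07. SCARNA12, within PHB2, rose in 5 lines, by 0.16, 0.48, 0.25, 1.3 and 0.72 on the log2 scale in H-23, H-1299, PANC-1, H-929 and RPMI, the H-23 call being lost without DMSO replicate 2 or carfilzomib replicate 1 or 2. SCARNA21 rose by 0.24 ± 0.04 in H-23, 0.64 ± 0.09 in H-1299, 1.44 ± 0.19 in H-929 and 1.03 ± 0.10 in RPMI. SCARNA22, within NSD2, went the other way in H-23 (-1.05 ± 0.32) and CAPAN-2 (-1.34 ± 0.31) and rose in H-929 (0.79 ± 0.12).

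Where a gene lies within a host, its response could be set beside that of the host in the same line. In H-929 182 such pairs with 120 hosts were tested, with a median log2 fold change of 1.14 for the small RNA genes and 0.11 for the hosts. Of the 142 called higher there, the host was higher for 75, lower for 39 and not called for 28, while 48 of the 120 hosts were higher and 39 lower. In CAPAN-2 the host of the 36 falling genes was lower for 18, higher for 6 and not called for 12, where 34 of 131 hosts were lower and 41 higher. In RPMI the host of the 51 rising genes was higher for 25, lower for 14 and not called for 12, where 42 of 115 hosts were higher and 42 lower. In H-1299 it was higher for 24 of 37, lower for 5 and not called for 8, where 70 of 131 hosts were higher and 30 lower. These host totals take each host once, while the pairs count a host once for every small RNA gene within it. The 2 kinds of share are therefore not alike. The share over all pairs is not given, and no agreement of gene and host is read from these counts. Across pairs the Pearson correlation of the 2 log2 fold changes was 0.25 in H-929, 0.31 in RPMI and 0.45 in CAPAN-2, over 182, 184 and 202 pairs that share hosts and libraries. How reads were shared between a snoRNA and its host, and whether strand was used, is not given in the sources used here. For 38 of the 278 genes another gene overlaps on the opposite strand.

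**Figure D5:**
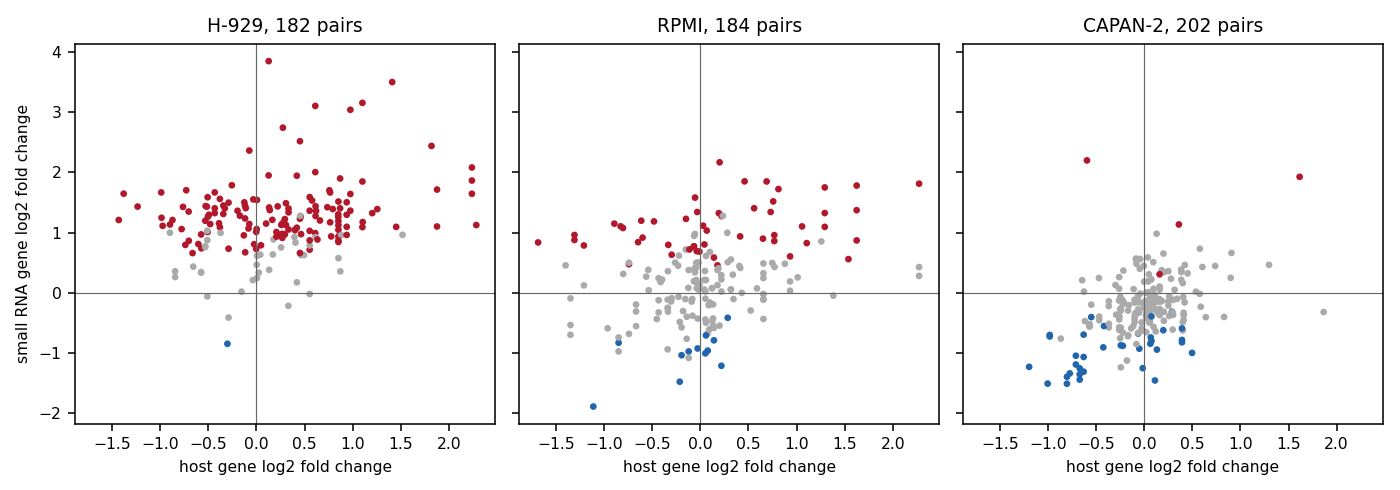
Log2 fold change of the small RNA gene against that of its host gene in H-929, RPMI and CAPAN-2, each point 1 pair (red, small RNA gene called higher; blue, lower; grey, not called). In H-929 red points lie above hosts on both sides of 0, 75 with a host called higher and 39 with a host called lower, and in CAPAN-2 18 of 36 blue points have a host called lower.

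Single hosts showed both patterns. IPO7 fell in H-929 by 0.99 on the log2 scale (adjusted p = 1.66e-07) while SNORA23 rose there by 1.67, and SNHG3 fell in RPMI (-1.31 ± 0.06) while SNORA73A and SNORA73B rose. NCAPD2, a condensin gene, was called lower in all 8 lines, by 0.21 to 0.80 on the log2 scale, and SCARNA10 in its intron was higher in 3 of them. In CAPAN-2 SNHG8 (-1.0) and SNORA24 (-1.51) fell together, and in H-929 both SNHG8 (1.45) and SNORA24 (1.10) rose. SNHG1 fell in CAPAN-2 (-0.63) and rose in H-929 (0.55) as its 3 snoRNAs did. It rose in H-1299 (0.43), where all 3 fell, and in RPMI (0.93), where of the 3 only SNORD26 was called (0.60). HSPA8, the constitutive HSP70 chaperone gene, hosts SNORD14C, SNORD14D and SNORD14E, which were looked at because the study's title names HSP70. HSPA8 rose in H-1299 (1.56), RPMI (1.29), H-929 (1.10) and CAPAN-2 (0.41), fell in RKO (-1.30), DLD-1 (-0.55) and PANC-1 (-0.39) and was not called in H-23 (-0.02). SNORD14E went from 10.2, 8.95 and 9.12 to 85.4, 79.0 and 88.3 CPM in H-929 (3.16 ± 0.12, adjusted p = 8.19e-11). SNORD14C (1.09) and SNORD14D (1.85) rose less in H-929. The 3 snoRNAs rose by 1.10 to 1.75 in RPMI. In H-1299, where the host rose most, SNORD14C fell (-0.67 ± 0.24, adjusted p = 0.0283, lost without DMSO replicate 2 or 3 or carfilzomib replicate 1 or 2) and SNORD14D (-0.44 ± 0.21) and SNORD14E (-0.61 ± 0.26) were not called. In H-23 SNORD14C (-0.79), SNORD14D (-0.69) and SNORD14E (-0.53) were called lower, SNORD14D not without DMSO replicate 1 or 2 or carfilzomib replicate 3 and SNORD14E not without DMSO replicate 2 or 3 or carfilzomib replicate 1 or 2. The 3 snoRNAs were not called in RKO, DLD-1, PANC-1 or CAPAN-2.

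Whether responses differed between the lines was tested in 1 fit of all 48 libraries with 7 contrasts. The 8 responses differed for 178 of the 278 genes (64.03%), near the 67.7% of all 22309 genes tested. The count was 106 without the RKO and H-929 libraries, 110 without H-929 and 117 without replicate 3 of every group. The mean of the 8 lines was higher for 61 genes (all genes, 19.8%) and lower for 18 (23.9%). Opposite calls, higher in 1 line and lower in another, were found for 64 genes. For these opposite calls, and for the fits with libraries left out, no all-gene share is given. Nothing particular to the set is read from those counts. Of 207 genes tested in both myeloma lines, 168 were higher in H-929 and 76 in RPMI, with 70 shared, 41.7% of the first list and 92.1% of the second, and 10 were higher in H-929 and lower in RPMI. Of the 39 CAPAN-2 falls that were also tested in H-929, 34 were higher there. Since 76.9% of all small RNA genes tested in H-929 were higher, a large share of any list of them would be, and nothing is read from these overlaps.

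The proteins that build these particles were read from lists of their genes. The shares of all genes called higher and lower, against which the counts stand, were 26.4% and 26.2% in H-929, 31.3% and 32.2% in RPMI, 29.8% and 31.3% in H-1299 and 25.7% and 26.7% in CAPAN-2. Most lists are short, and several counts lie near these shares, so nothing is called particular to a list. Of the 8 snoRNP core proteins, 5 were lower in H-929 and 6 of 7 in RPMI, at medians of -0.40 and -0.34. NHP2, an H/ACA core protein, fell in 5 lines, by 0.33 ± 0.05 in H-23, 0.89 ± 0.05 in H-1299, 0.52 ± 0.10 in CAPAN-2, 0.29 ± 0.08 in H-929 and 1.26 ± 0.07 in RPMI. Of 22 assembly factors, 20 were tested in H-929, with 10 lower. The assembly factor GEMIN4 fell in 5 lines, to -0.84 ± 0.08 in CAPAN-2 and -0.81 ± 0.06 in RPMI, its H-23 call being lost without DMSO replicate 2 or 3 or carfilzomib replicate 2 or 3. RPAP3, a cochaperone of the same assembly line, rose in 5 lines, to 0.77 ± 0.06 in CAPAN-2, and fell in H-929 (-0.30 ± 0.10).

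The 6 signal recognition particle proteins also went different ways by line, with 4 higher and 2 lower in H-1299, 4 higher in CAPAN-2, and 1 higher and 5 lower in H-929, where RN7SL3 RNA rose. SRP9 fell in 6 lines and its partner SRP14 rose in 5, the H-929 rise of SRP14 (0.28 ± 0.09) being lost without DMSO replicate 1 or 3, without carfilzomib replicate 1 or 2 and with no filter on low counts. Of 10 RNase P and MRP proteins tested, 2 were higher and 4 lower in H-929, with POP1 (-0.38 ± 0.10) and POP4 (-0.50 ± 0.11) lower, while POP1 rose by 1.41 ± 0.07 in H-1299. Among 18 tested promoter factors of polymerase III and snRNA genes, 13 were higher in H-1299, 12 in CAPAN-2, 9 in RPMI and 6 in H-929. BRF2, the factor for U6-type and RNase MRP promoters, rose in 6 lines, by 2.33 ± 0.07 in H-1299, 2.11 ± 0.14 in H-929, 1.91 ± 0.11 in RPMI, 1.67 ± 0.10 in CAPAN-2, 0.77 ± 0.10 in H-23 and 0.63 ± 0.22 in PANC-1. The PANC-1 rise was lost without DMSO replicate 1, 2 or 3 or carfilzomib replicate 1 or 3 (adjusted p up to 0.191). GTF3A, the 5S ribosomal RNA factor, fell in 5 lines, to -1.14 ± 0.11 in H-929, and rose slightly in PANC-1 (0.12 ± 0.04), where 5 single libraries ended the call when left out, as 4 did in CAPAN-2.

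Of 11 polymerase III subunits, 6 were lower in H-929, 5 higher and 5 lower in RPMI and 4 higher and 5 lower in H-1299. Of 14 Integrator subunits, which cut the ends of spliceosomal RNA precursors, 7 were lower and 3 higher in H-929, with INTS14 at -1.23 ± 0.14 and INTS4 at 0.40 ± 0.12, the latter lost without DMSO replicate 1 (adjusted p = 0.0652). Of 5 proteins of Y RNA and vault particles, 2 were lower in H-929. Of 19 tested noncoding host genes of snoRNAs, 16 were higher in H-929 and 14 in RPMI, and 9 were lower in CAPAN-2, at medians of 1.10, 0.77 and -0.37. ZFAS1, a host of the SNORD12 family, rose in 5 lines, by 2.27 ± 0.07 in RPMI and 0.98 ± 0.08 in H-929, and fell in PANC-1 (-0.16), its H-23 rise being lost without DMSO replicate 2 or 3 or carfilzomib replicate 1 or 2. SNORD12C within it rose by 1.81 ± 0.19 and 3.04 ± 0.16 in these 2 lines, and fell by 0.78 ± 0.23 in CAPAN-2, where ZFAS1 rose by 0.39 ± 0.06. SNORD12C was also called lower in PANC-1 (-0.47) and H-23 (-0.33), calls lost without DMSO replicate 1 or carfilzomib replicate 1 in both lines, without carfilzomib replicate 2 in H-23 and with DESeq2 in PANC-1.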

How the data were processed

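RNA sequencing counts were analysed for 48 libraries of 8 cell lines, 3 biological replicates for each line and treatment. RNA was extracted with Qiazol and made into stranded total RNA libraries, per the labels' protocols. The deposited matrix holds raw counts per gene from the authors. The submitters' processing notes name bcl2fastq 2.19, FastQC, Trimmomatic, HISAT2, DESeq2 and build hg38; the counting program, annotation and use of strand are not given in the sources used here. Totals were 9.12 M to 64.4 M counts, and precision is limited for genes of few counts.

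Each line was fitted with edgeR 4.0.16 in R 4.3.3 (TMM factors, filterByExpr, quasi-likelihood F test, 6 libraries) over all genes, with Benjamini-Hochberg adjustment over all tested genes and calls at 0.05. A fit of all 48 libraries tested whether the 8 responses were equal. Levels are CPM on library totals scaled by the TMM factors of the line, and shares are of raw library totals. On simulated counts with 199 or 200 genes changed 2-fold, the fit of a line recovered 69% (H-929) to 89% (PANC-1) of them, and false calls were 4.17% (H-929) to 11.0% (CAPAN-2) of calls, above 5% in every line but H-929. The test of differences between lines recovered 26%, with 3.70% false calls. That simulation gave every gene the same spread and changed genes in RPMI only. In every simulation the changed genes were picked above a minimum mean count, which was higher for the test between lines. These rates therefore need not hold for the genes of the set. Replicates of 1 group differed beyond sampling noise (chi-square divided by its degrees of freedom was 3.33 or more), so none was merged. Alternatives were DESeq2 1.42.0, other scalings, no filter, a minimum of 50 counts, a replicate block and single libraries left out.

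Named genes were the 3 of each class with the highest mean CPM, RMRP and the RNY genes, in each line the called gene of the set with the largest rise and fall (a mean of 20 counts or more in the group where it was higher, and no overlap), and up to 3 genes of each partner list called in 1 direction in at least 5 lines; hosts came from GENCODE 29. Other genes named were chosen after their values were seen. The members and lists were chosen with earlier results of these data known. For 278 genes the identifier was found in GENCODE 29, and for 259 the name matched; for the other 19, place and host were not used.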

Additional observations from a re-analysis of the deposited data

Results flagged for a closer look

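The response to carfilzomib differed between the 8 lines for 178 of the 278 small noncoding RNA genes, in edgeR's test of 7 contrasts over all 48 libraries with Benjamini-Hochberg adjustment over all genes. All values in the following sentences are adjusted p of that test. RMRP had 6.12e-13. Among the 7SL genes RN7SL3 had 1.35e-08, RN7SL832P 5.16e-05, RN7SL396P 9.46e-05 and RN7SL521P 0.000444. Among spliceosomal RNA genes RNU6ATAC had 4.15e-09, RNU12 1.73e-05, RNU5E-1 0.000323, RNU2-64P 0.00033 and RNU6-37P 0.00622.

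SNORA73B had 3.34e-13, SNORA73A 2.76e-08, SNORA74A 3.3e-05 and SNORA40B 0.0137. Among C/D snoRNAs SNORD3A had 6.27e-10, SNORD27 1.8e-07, SNORD10 5.33e-05, SNORD93 0.000287 and SNORD3D 0.00703. Among Cajal body RNAs SCARNA10 had 1.5e-11, SCARNA2 1.72e-11 and SCARNA7 4.5e-10. The sizes in each line stand with these genes above, and the share of all genes whose response differed was 67.7%.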

How the results depend on the processing

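Of 6554 values of named genes under alternatives, 259 lost the call, 110 gained one and 2 that had not been called were called with the other sign: without DMSO replicate 3, SCARNA7 in DLD-1 was 0.15 and RN7SL4P in H-1299 1.21, against ranges over single libraries left out of -0.16 to 0.15 and -0.78 to 1.21. The cause was not tested. The 3 falls in RKO became 1 with library totals, 22 with no filter, 10 with the replicate block and 6 with DESeq2. With library totals DLD-1 falls were 1, H-1299 falls 29 and the SCARNA log2 ratio in H-1299 0.38. The replicate block left 1 fall in DLD-1. DESeq2 gave 6 rises in H-23, 7 falls in H-1299, 9 rises and 3 falls in PANC-1, where no filter also gave 3 falls, and a minimum of 50 counts gave 7 rises in H-23.

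With single libraries left out, rises and falls ranged from 0 to 0 and 0 to 10 in RKO, 1 to 6 and 0 to 4 in DLD-1, 4 to 11 and 9 to 21 in H-23, 34 to 42 and 7 to 15 in H-1299, 7 to 15 and 2 to 9 in PANC-1, 4 to 10 and 34 to 41 in CAPAN-2, 160 to 172 and 2 to 4 in H-929, and 67 to 81 and 11 to 17 in RPMI. The lowest counts came without DMSO replicate 2 or 3 or carfilzomib replicate 2 for rises in H-23, DMSO replicate 1 for falls in H-23, DMSO replicate 2 for falls in H-1299 and rises in PANC-1, DMSO replicate 1 for falls in PANC-1 and carfilzomib replicate 1 for rises in CAPAN-2 and DLD-1; DLD-1 falls went to 0 without DMSO replicate 2 or carfilzomib replicate 2 or 3. The count of genes whose response differed between lines was 106 without RKO and H-929, 110 without H-929 and 117 to 142 with 1 replicate number left out.

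Same-numbered DMSO and carfilzomib libraries did not deviate together (correlations -0.063 to 0.049, and 12 of 24 DMSO libraries correlated best with their own number), so the replicate block is not a pairing here. Low counts limit most genes outside the abundant few.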
